A study of Mus musculus with 7 samples.

Results

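The genes described here carry glucose from the medium to the mitochondrion in C2C12 myotubes, the multinucleated cells formed when this mouse myoblast line fuses. They are the transporters that bring glucose in, the enzymes of glycolysis, the enzymes and carriers of lactate, and the pyruvate dehydrogenase complex with the kinases and phosphatase that switch it. The members were chosen as a list of 37 gene symbols, and 36 of them are among the 26607 genes of the expression tables. Pkm, pyruvate kinase of muscle, is missing under that symbol. All 36 were above 0 in at least 1 library and were tested.

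Unstimulated and stimulated cultures of this established clonal line were compared by RNA-seq. The control group has 3 libraries of myotubes given no stimulation, numbered 1, 3 and 4, and the EPS group has 4 libraries of myotubes given electrical pulse stimulation (EPS), numbered 1 to 4. EPS makes cultured myotubes contract and serves as a model of exercise without nerve, blood vessel or other organs. It began 3 days after differentiation was induced by lowering the serum, ran for 24 h, and cells were collected after a rest of 1 h. The sources do not say whether libraries of a group came from separate cultures, so p-values measure the spread between these libraries, which may be technical.

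Glycolysis splits glucose into pyruvate in the cytosol. Pyruvate is then reduced to lactate and exported, or enters the mitochondrion, where pyruvate dehydrogenase turns it into acetyl-CoA. Skeletal muscle raises this flux when it contracts. It also carries its own isozymes at several steps, such as Pfkm, Pgam2 and Eno3, beside the forms that most other cells use, and its insulin-responsive transporter, Slc2a4, moves to the cell surface in working adult muscle.

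Depth was between 16616917 and 22120641 reads per library in the control group and between 18830229 and 21892568 in the EPS group. Values are CPM, a gene's reads as its share of the library's total on a scale common to all libraries, and 3 reads, the smallest level told from 0 here, correspond to between 0.136 and 0.181 CPM, allowing for counting error only. Control replicate 4 stood apart. Genes with 1 to 5 reads numbered 359 there and 2670 to 3181 elsewhere, and results that turn on it are given with and without it. Myotube markers were present in every library, with 11 of 12 listed markers in the tables, a summed level from 15541 to 23708 CPM and no marker at 3 reads or fewer in all libraries. None of the 11 had an unadjusted P under 0.05 in limma, but 9 had a log2 fold change below 0, with a list median of -0.44, or -0.24 and 8 of 11 without control replicate 4. The median of all genes with a mean of at least 1 CPM was 0.10. Myog, a transcription factor of differentiation, had -1.07 (unadjusted P of 0.0525), and -0.47 (0.190) without control replicate 4. The part of this shift in the values of Pfkm and the other muscle isozymes was not tested. Markers of proliferating cells did move with EPS. All 6 listed (Mki67, Top2a, Ccnb1, Cdk1, Ccna2 and Birc5) were higher at P under 0.05, where 8.4% of all tested genes were, or 3 of 6 without control replicate 4, where 7.37% were. Their summed level was 255 to 340 CPM in the control and 391 to 1132 CPM in the EPS group, and its part in the results below was not tested. In bulk RNA, fewer cells of a type and less RNA per cell cannot be told apart.

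Glucose transporters, glycolytic genes and pyruvate dehydrogenase kinases were among the members higher after EPS, muscle phosphofructokinase was lower, and no member differed by 2-fold on the log2(CPM + 1) scale. Of the 36 members, 10 were higher and 1 was lower at an unadjusted P under 0.05 in limma, or 27.8% and 2.78%, where 8.4% and 3.21% of the 19144 tested genes were. The 10 higher ones were the transporters Slc2a1 and Slc2a3, the glycolytic genes Gpi1, Aldoc, Pgk1 and Pgam1, the transporter chaperone Bsg and the pyruvate dehydrogenase kinases Pdk1, Pdk2 and Pdk4. The lower one was Pfkm. In limma none passed P under 0.01 with more than 2-fold, which 1.41% of all tested genes did, and Aldoc did in edgeR and DESeq2. Nor had any in limma a Benjamini-Hochberg adjusted p under 0.05 over all tested genes, where 0.141% did. With genes under a mean of 1 CPM left out, 2 had one, Slc2a1 (adjusted p of 0.0419 in limma) and Pdk4 (0.0372), where 0.694% of the genes were higher and 0.294% lower. With a pseudocount of 0.1 their adjusted p was 0.0455 and 0.0425. edgeR, on whole reads recovered from the CPM, had 9 members higher and 1 lower at P under 0.05, where 5.6% and 5.95% of all genes were. Pdk4 alone of the members then had an adjusted p under 0.05, where 0.778% of all genes were higher and 0.737% lower. DESeq2 had 11 members higher and 1 lower at P under 0.05, where 5.19% and 5.42% were. Slc2a1 and Pdk4, higher, and Pfkm, lower, had an adjusted p under 0.05 there, where 1.27% of all genes were higher and 1.33% lower.

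The EPS libraries all lay above the control libraries in 10 members, or 27.8%, against 7.76% of all tested genes, and below in 1, Pfkm, or 2.78%, against 2.85%. Among genes with a mean of at least 1 CPM, which 34 members reach, 9 members (26.5%) lay above and 1 (2.94%) below. The shares over all genes were then 9.18% above and 3.49% below. The median log2 fold change (log2FC, EPS over control) of the members was 0.31 on the log2(CPM + 1) scale, and that of all genes with a mean of at least 1 CPM was 0.10. After median-of-ratios scaling, which removes that overall shift, the median of the members was 0.20, with 9 members higher and 1 lower at P under 0.05, where 6.08% and 4.78% of all genes were. Without control replicate 4, 8 members were higher and 1 was lower at P under 0.05, where 7.37% and 3.87% of all genes were. The EPS libraries then lay above the control libraries in 13 members, adding Tpi1, Gapdh and Eno1, where 13.2% of all genes did, and below in 1, where 6.55% did. Leaving out control replicate 1 lowered the median of the members most, to 0.17 beside 0.099 for all genes with a mean of at least 1 CPM, so that the difference between these medians went from 0.21 to 0.070. A log2FC above 0 was seen in 29 of 36 members in limma, against 63.3% of all tested genes, and in 24 of 36 in edgeR and in DESeq2, against 53.5% and 52.3%.

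**Figure D1:**
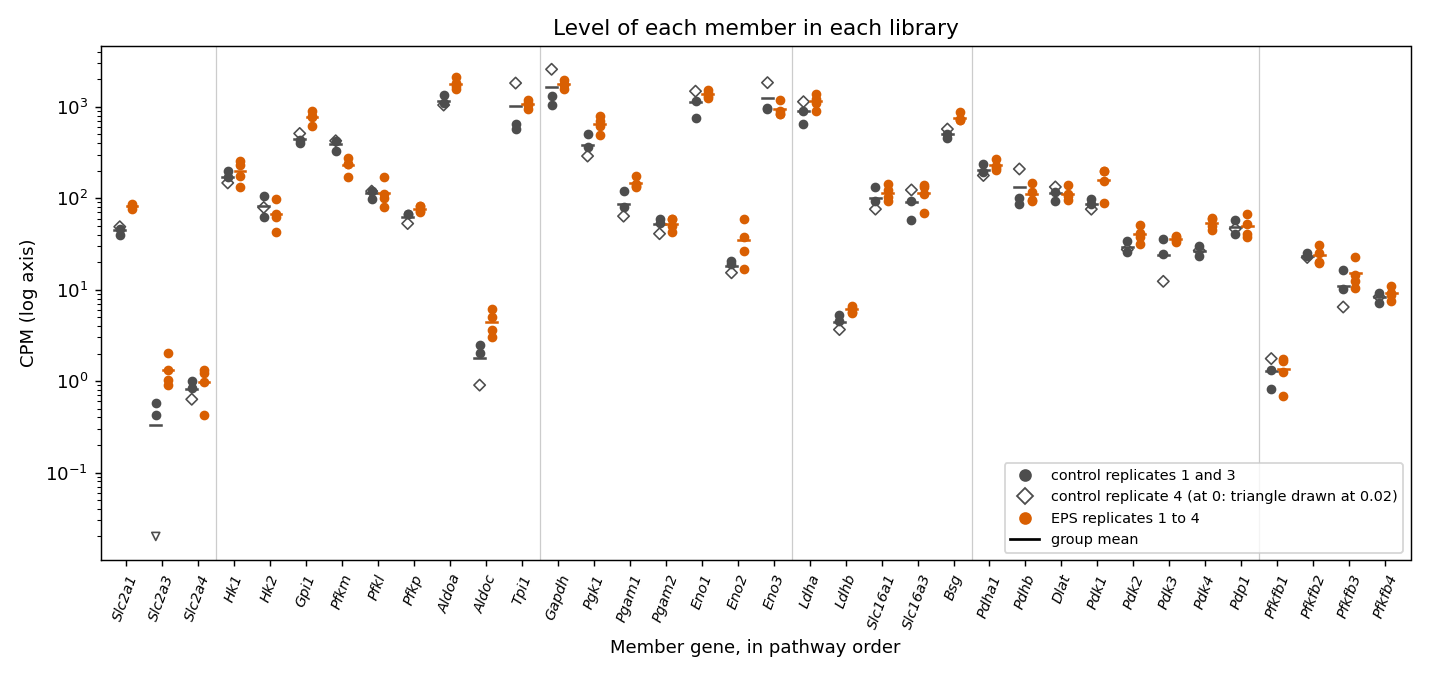
Level of each member in CPM on a log axis, in pathway order, with a point for each library, open diamonds for control replicate 4 and a bar for each group mean. Levels run from Slc2a3, with a control mean of 0.335 CPM, to Gapdh, at 1643 CPM, and the orange EPS points of Slc2a1 (75.5 to 85.6 CPM) sit clear of its control points (39.6 to 48.8 CPM).

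The starts of 5 genes are shown because the results turn on them. Unadjusted P under 0.01 in limma was reached by 5 members that were higher, where 2.83% of all genes were, and by Pfkm, which was lower, where 1.34% were. The RefSeq promoter table for GRCm38.p6 lists all of these but Slc2a3. Each sequence is the 250 bases before the start of transcription, read 5′ to 3′ on the gene's strand. Capitals mark matches, on either strand, to ACGTG or GCGTG, the core letters bound by hypoxia-inducible factors, to CACGTG, an E-box that contains ACGTG, or to TGACNNNGC, the core of the antioxidant response element.
Slc2a1: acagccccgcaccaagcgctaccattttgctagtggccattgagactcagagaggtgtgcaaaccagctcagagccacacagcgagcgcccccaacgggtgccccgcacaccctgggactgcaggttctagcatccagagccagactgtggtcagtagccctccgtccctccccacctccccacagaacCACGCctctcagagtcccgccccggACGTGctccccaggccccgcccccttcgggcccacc
Gpi1: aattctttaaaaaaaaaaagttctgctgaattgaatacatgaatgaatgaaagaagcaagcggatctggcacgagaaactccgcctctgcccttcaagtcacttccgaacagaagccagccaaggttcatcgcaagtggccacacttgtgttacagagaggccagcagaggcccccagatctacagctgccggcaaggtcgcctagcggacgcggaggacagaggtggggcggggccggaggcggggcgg
Pfkm: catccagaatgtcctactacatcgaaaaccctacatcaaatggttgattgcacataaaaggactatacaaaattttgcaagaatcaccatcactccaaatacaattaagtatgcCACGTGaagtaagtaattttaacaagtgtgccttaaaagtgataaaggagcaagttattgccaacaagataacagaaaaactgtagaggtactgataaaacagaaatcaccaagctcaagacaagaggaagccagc
Pgam1: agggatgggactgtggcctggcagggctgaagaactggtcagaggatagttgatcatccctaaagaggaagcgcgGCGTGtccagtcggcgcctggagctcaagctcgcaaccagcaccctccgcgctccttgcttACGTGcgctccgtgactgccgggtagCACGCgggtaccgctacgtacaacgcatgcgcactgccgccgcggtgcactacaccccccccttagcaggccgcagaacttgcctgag
Pdk4: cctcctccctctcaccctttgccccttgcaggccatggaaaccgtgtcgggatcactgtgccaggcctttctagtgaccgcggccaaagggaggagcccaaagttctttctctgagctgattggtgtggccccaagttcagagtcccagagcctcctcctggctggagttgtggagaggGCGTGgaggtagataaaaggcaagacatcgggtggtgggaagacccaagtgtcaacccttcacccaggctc
These windows lie at chr4:119108495-119108744 on the plus strand for Slc2a1, chr7:34230337-34230586 on the minus strand for Gpi1, chr15:98092339-98092588 on the plus strand for Pfkm, chr19:41911621-41911870 on the plus strand for Pgam1 and chr6:5496279-5496528 on the minus strand for Pdk4. Pfkm has 4 listed starts, and the most upstream is shown. Of the Pfkm windows only this one holds CACGTG, and which start these myotubes use was not tested. Of the members, 32 matched the table by symbol, with 50 starts. ACGTG or GCGTG was found before 37 of these 50, against 38.6% of all 32851 listed starts, and TGACNNNGC before 3 of 50, against 10.2%. Windows of neighbouring starts of a gene can overlap, so a match can be counted more than once. By gene, 27 of the 32 members had ACGTG or GCGTG before at least 1 start. The Gpi1 window holds none of the 4 motifs, which says only that these letters are not in it. A match of letters is a description and not a binding site.

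Glucose enters through the facilitative transporters. Slc2a1 (ENSMUSG00000028645.11), the basal transporter GLUT1 of most cells, spans 119108711 to 119137983 of chromosome 4 (GRCm38). It was at 39.6, 46.7 and 48.8 CPM in control replicates 1, 3 and 4 and at 82.4, 83.4, 85.6 and 75.5 CPM in EPS replicates 1 to 4. The libraries of each group lay close together and the groups were far apart. It averaged 45.1 ± 4.81 in the control (SD, n = 3) and 81.7 ± 4.33 CPM with EPS (SD, n = 4), a log2FC of 0.85 ± 0.14 (SE, adjusted p of 0.0692 in limma, 0.0703 in edgeR and 0.0049 in DESeq2). The exact permutation test gave p = 0.0286, below which this design cannot go. The log2FC lay between 0.76 and 0.91, at P under 0.05, whichever library was left out.

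Slc2a3, the high-affinity transporter GLUT3 best known from neurons, was near the limit of detection, with 10, 7 and 0 reads in the control libraries and 44, 21, 29 and 17 reads in the EPS libraries. All EPS libraries were above the control group, and the control library at 0 was replicate 4. The log2FC of 0.80 ± 0.21 (SE, limma adjusted p = 0.177) depends on the pseudocount at this level and was 2.05 with a pseudocount of 0.1. Without control replicate 4, with a pseudocount of 1, it was 0.61 at an unadjusted P of 0.0161 in limma. Slc2a4, the insulin-responsive transporter GLUT4 of adult muscle and fat, was also scarce, at 0.991, 0.843 and 0.633 CPM in the control and 0.978, 1.32, 1.23 and 0.425 CPM in the EPS libraries. The groups overlapped, with both the highest and the lowest value in the EPS group. Its log2FC was 0.11, with a 95% interval from -0.31 to 0.52, and a change was not detectable at this depth. Per kilobase of annotated exon, Slc2a1 was at 12.9 ± 1.37 CPM in the control group and Slc2a4 at 0.236 ± 0.0517 CPM (SD, n = 3).

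Hexokinases trap glucose by phosphorylating it. Neither form differed beyond the spread. Hk1 was at 197, 172 and 147 CPM in the control and at 229, 133, 256 and 177 CPM in the EPS libraries (log2FC 0.17 ± 0.24, SE, and from 0.035 to 0.35 with a library left out). Hk2, the insulin-regulated form of muscle, was at 106, 62.4 and 79.2 CPM in the control and at 66.7, 62.8, 97.0 and 42.3 CPM in the EPS libraries. The groups of Hk2 overlapped, with its lowest level in EPS replicate 4. Its log2FC was -0.32 (95% interval -0.96 to 0.32), and from -0.51 to -0.12 with a library left out.

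Gpi1 (ENSMUSG00000036427.5), glucose-6-phosphate isomerase, which makes the substrate of phosphofructokinase, lies on chromosome 7 from 34201330 to 34230336. It was at 438, 398 and 511 CPM in the control and at 796, 776, 906 and 615 CPM in the EPS libraries. The EPS library nearest the control group was replicate 4. It averaged 449 ± 57.6 in the control (SD, n = 3) and 773 ± 119.9 CPM with EPS (SD, n = 4), a log2FC of 0.78 ± 0.22 (SE, limma adjusted p = 0.206), and it stayed at P under 0.05 with any library left out.

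Phosphofructokinase catalyses the committed step of glycolysis and has a muscle, a liver and a platelet form. The muscle form, Pfkm (ENSMUSG00000033065.14), on chromosome 15 from 98092589 to 98132451, was the only member whose EPS libraries all lay below the control libraries. It was at 426, 331 and 426 CPM in the control and at 238, 238, 279 and 171 CPM in the EPS group, lowest in EPS replicate 4. Its log2FC was -0.78 ± 0.20 (SE, adjusted p of 0.186 in limma, 0.0754 in edgeR and 0.0119 in DESeq2, with p = 0.0286 in the exact permutation test). It lay between -0.90 and -0.64, at P under 0.05, whichever library was left out. The liver and platelet forms did not share this pattern. Pfkl, the liver form, was at 119.5, 99.4 and 119.6 CPM in the control and at 110.0, 101, 170.2 and 80.03 CPM in the EPS libraries, with both the highest and the lowest value in the EPS group, and had a log2FC of -0.02 (95% interval -0.56 to 0.53). Pfkp, the platelet form, was at 67.6, 67.6 and 52.9 CPM in the control and at 81.4, 72.9, 81.7 and 70.4 CPM in the EPS libraries, without overlap, at a log2FC of 0.29 ± 0.15 (SE, limma adjusted p = 0.493), or 0.17 without control replicate 4.

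Aldolase splits the doubly phosphorylated hexose. Aldoa, its muscle form and the more abundant one here, was at 1101, 1355 and 1047 CPM in the control and at 1813, 2121, 1674 and 1581 CPM in the EPS libraries. The groups did not overlap, but the log2FC of 0.62 ± 0.29 (SE, limma adjusted p = 0.461) missed P under 0.05 on the deposited scale and in edgeR, and passed it after quantile normalization, in DESeq2 or with genes under a mean of 1 CPM left out. Aldoc, the brain form, was scarce, at 2.04, 2.47 and 0.904 CPM in the control and at 3.58, 6.09, 4.98 and 3.03 CPM in the EPS libraries. Every EPS library of Aldoc was above the control group. Its log2FC was 0.96 ± 0.30 (SE, limma adjusted p = 0.253). Without control replicate 4, its lowest library, it was 0.70 at an unadjusted P of 0.0398 in limma. After median-of-ratios scaling as well, it was 0.62 at an unadjusted limma P of 0.0511. With all libraries it was 1.20 in edgeR and 1.19 in DESeq2. Aldoc alone of the members passed P under 0.01 and 2-fold upward there, where 1.72% and 1.66% of all genes did.

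Tpi1, triosephosphate isomerase, and Gapdh, which oxidises its product and often serves as a reference gene, were high in control replicate 4. Tpi1 was at 567, 658 and 1821 CPM in control replicates 1, 3 and 4 and between 951 and 1197 CPM in the EPS group. With all libraries its log2FC was 0.29 (95% interval -0.63 to 1.20), but -0.024 in edgeR and -0.034 in DESeq2, and it was -0.030 without control replicate 1. Without control replicate 4 it was 0.81 at an unadjusted P of 0.0094, and every EPS library was then above the control group. Gapdh was at 1049, 1304 and 2576 CPM in the control and at 1729, 1974, 1588 and 1788 CPM in the EPS libraries. Its log2FC was 0.21 with all libraries and 0.59 without control replicate 4 (unadjusted P of 0.0914). It was -0.0020 in edgeR, so no direction can be given for Tpi1 or Gapdh with all libraries.

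**Figure D2:**
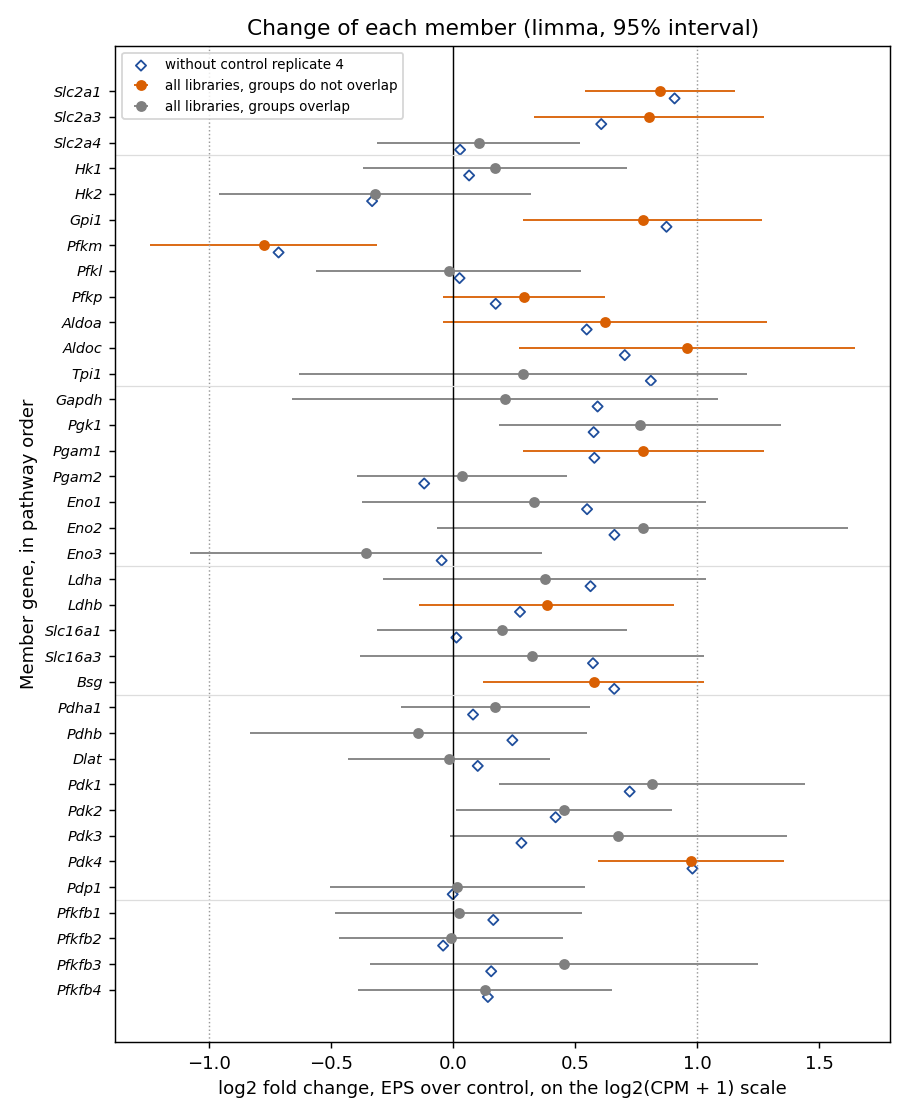
Log2FC of each member, EPS over control, on the log2(CPM + 1) scale from limma, with 95% intervals, in pathway order. Orange points are members whose groups do not overlap, gray points those whose groups do, blue diamonds the value without control replicate 4, and dotted lines mark 2-fold. Pfkm, at -0.78, is the only orange point left of 0, and Tpi1 moves from 0.29 to 0.81 without control replicate 4.

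Among the enzymes after triose phosphate, Pgk1 and Pgam1 were higher after EPS at P under 0.05 in limma. Gapdh, Pgam2, Eno1, Eno2 and Eno3 were not. Pgk1, phosphoglycerate kinase, which makes the pathway's first ATP, was at 367, 505 and 289.7 CPM in the control and at 622, 792, 694 and 497 CPM in the EPS libraries. EPS replicate 4 lay just under control replicate 3, and all other EPS libraries were above the control group. The log2FC was 0.77 ± 0.25 (SE, limma adjusted p = 0.28), and 0.58 at an unadjusted P of 0.0552 without control replicate 4. Pgam1 (ENSMUSG00000011752.7), the general phosphoglycerate mutase, on chromosome 19 from 41911923 to 41918660, was at 79.3, 119 and 63.7 CPM in the control and at 144, 174, 135 and 134 CPM in the EPS libraries. The groups of Pgam1 did not overlap. Its log2FC was 0.78 ± 0.22 (SE, limma adjusted p = 0.208), and from 0.58 to 1.03 with each library left out, all at P under 0.05. Pgam2, the muscle mutase, was at 54.2, 59.9 and 41.0 CPM in the control and at 59.7, 60.0, 49.6 and 42.5 CPM in the EPS libraries. Its groups overlapped over nearly their whole range, and its log2FC of 0.04 turned negative after median-of-ratios scaling, at -0.074.

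Enolase makes phosphoenolpyruvate. Eno1, the general form, was at 760.5, 1173 and 1483 CPM in the control and at 1414, 1547, 1321 and 1265 CPM in the EPS libraries. Control replicate 4 lay within the EPS range and the other control libraries below it, and the log2FC was 0.33 (95% interval -0.37 to 1.04). It was 0.55 without control replicate 4 and 0.068 without control replicate 1. Eno3, the muscle form, was at 956, 969.6 and 1839.9 CPM in the control and at 1193, 829, 843 and 904 CPM in the EPS libraries. The high value again was control replicate 4, and without it the log2FC of -0.36 became -0.047. Eno2, the neuronal form, was between 15.3 and 20.6 CPM in the control but ranged from 16.8 CPM in EPS replicate 4 to 59.2 CPM in EPS replicate 2 (log2FC 0.78 ± 0.37, SE, limma adjusted p = 0.468). Without EPS replicate 4 it was 1.07 at an unadjusted P of 0.00742, and without EPS replicate 2 it was 0.49 at 0.146. Eno2 passed P under 0.05 in edgeR (0.0122), in DESeq2 (0.0201), with a pseudocount of 0.1 (0.0406) and with genes under a mean of 1 CPM left out (0.0422).

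Pyruvate kinase makes the pathway's last ATP and its pyruvate. The RefSeq gene table gives Pkm2 as another name of Pkm, and the expression tables list a gene of that name. This row lies outside the list and was looked up after its values were seen. It was at 2002, 1791 and 2797 CPM in the control and at 3062, 2566, 3369.6 and 2879 CPM in the EPS libraries, with EPS replicate 2 below control replicate 4 and the other EPS libraries above the control group (log2FC 0.45 ± 0.40, SE, limma adjusted p = 0.719).

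Lactate dehydrogenase, the lactate carriers and their chaperone all had log2FC values above 0 on the deposited scale, and Bsg alone of them had P under 0.05. Ldha, the subunit that favours lactate formation, was at 655, 903 and 1138 CPM in the control and at 1206, 1397, 1102 and 900.0 CPM in the EPS libraries, and the groups overlapped (log2FC 0.38, 95% interval -0.29 to 1.04, 0.17 without control replicate 1 and 0.56 without control replicate 4). Ldhb, the heart subunit, was scarce, at 4.49, 5.24 and 3.66 CPM in the control and at 6.38, 6.67, 5.57 and 5.74 CPM in the EPS libraries. Its groups did not overlap, but its log2FC of 0.38 ± 0.23 (SE) missed P under 0.05. Slc16a1, a carrier of lactate and pyruvate found in most cells, was at 94.4, 134 and 76.1 CPM in the control and at 102, 143, 92.9 and 123 CPM in the EPS libraries (log2FC 0.20 ± 0.23, SE). Slc16a3, the export carrier of glycolytic cells, was at 57.2, 93.0 and 123 CPM in the control and at 139.6, 112, 132 and 68.8 CPM in the EPS libraries (log2FC 0.32 ± 0.31, SE). Both had overlapping groups. Control replicate 4 was the lowest library of all for Slc16a1, at 76.1 CPM, and the highest of its group for Slc16a3, at 123 CPM. Without it the log2FC was 0.014 for Slc16a1 and 0.57 for Slc16a3, and without control replicate 1 that of Slc16a3 was 0.026.

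Bsg (ENSMUSG00000023175.15), basigin, the glycoprotein that brings both carriers to the membrane, lies on chromosome 10 from 79704491 to 79711969. It was at 461, 499 and 572 CPM in the control and at 721, 881, 715 and 729.8 CPM in the EPS libraries. EPS replicate 2 lay apart above the other 3 EPS libraries, and all 4 were above the control group. The log2FC was 0.58 ± 0.20 (SE, limma adjusted p = 0.301). Without control replicate 1 it was 0.51 at an unadjusted P of 0.0781, without control replicate 3 it was 0.56 at 0.0548, and in edgeR it was 0.47 at 0.0586. With the replicate number as a block in limma, the unadjusted P of Bsg was 0.0631.

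Entry of pyruvate into the citric acid cycle is set by the pyruvate dehydrogenase complex, which the Pdk kinases switch off and the Pdp phosphatases switch on. Of the kinases, Pdk1, Pdk2 and Pdk4 were higher after EPS at P under 0.05, and the subunits of the complex were not. Pdk4 (ENSMUSG00000019577.6), the kinase known to increase in fasting and after exercise, lies on chromosome 6 from 5483351 to 5496309. It was at 23.4, 29.8 and 26.9 CPM in the control and at 45.2, 59.1, 49.1 and 61.0 CPM in the EPS libraries. The lowest EPS library was well above the highest control library. It averaged 26.7 ± 3.21 in the control (SD, n = 3) and 53.6 ± 7.65 CPM with EPS (SD, n = 4), a ratio of 2.01. On the log2(CPM + 1) scale the fold change was 0.97 ± 0.17 (SE, adjusted p of 0.073 in limma, 0.0356 in edgeR and 0.0012 in DESeq2), the largest of the 36 members on that scale. It lay between 0.89 and 1.06, at P under 0.01, whichever library was left out, and passed 2-fold without control replicate 3, EPS replicate 1 or EPS replicate 3.

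Pdk1, the kinase best known from the response to low oxygen, was at 86.8, 97.8 and 76.0 CPM in the control and at 156, 198, 199 and 88.9 CPM in the EPS libraries. EPS replicate 4 lay inside the control range and the other 3 far above it. The log2FC of 0.82 ± 0.28 (SE, limma adjusted p = 0.291) became 1.07 without EPS replicate 4 and 0.72 at an unadjusted P of 0.0510 without control replicate 4. Pdk2, the most widely expressed kinase, was at 34.2, 25.6 and 27.5 CPM in the control and at 37.8, 42.0, 50.7 and 31.7 CPM in the EPS libraries, a log2FC of 0.45 ± 0.20 (SE, limma adjusted p = 0.418). It lost P under 0.05 without control replicate 3 or 4 or EPS replicate 1, 2 or 3 (unadjusted P from 0.0707 to 0.139), after median-of-ratios scaling, at 0.34, after quantile normalization, with genes under a mean of 1 CPM left out, with the replicate number as a block, and in edgeR and DESeq2. Pdk3 was at 24.4, 35.5 and 12.3 CPM in the control, lowest in replicate 4, and between 33.0 and 38.4 CPM in the EPS group, a log2FC of 0.68 ± 0.30 (SE, limma adjusted p = 0.44) that became 0.28 without control replicate 4 and 1.01, at an unadjusted P of 0.0052, without control replicate 3. It also passed P under 0.05 with a pseudocount of 0.5 or 0.1 and with genes under a mean of 1 CPM left out (P from 0.0354 to 0.0475).

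The subunits Pdha1, Pdhb and Dlat had log2FC values of 0.17, -0.14 and -0.02. Their 95% intervals ran from -0.21 to 0.56, from -0.83 to 0.55 and from -0.43 to 0.40. The value of Pdha1 was 0.082 without control replicate 4. Pdhb was at 209 CPM in control replicate 4 and at 87.5 and 99.6 CPM in control replicates 1 and 3, and its sign turned without replicate 4, to 0.24. The phosphatase Pdp1 was at 48.1 ± 8.93 CPM (SD, n = 3) and 49.5 ± 13.9 CPM (SD, n = 4).

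The bifunctional enzymes Pfkfb1 to Pfkfb4 make and remove the sugar phosphate that activates phosphofructokinase. None of the 4 had an unadjusted P under 0.05 in limma. Pfkfb3 had a log2FC of 0.46 (95% interval -0.34 to 1.25), or 0.16 without control replicate 4, with EPS replicate 1 highest at 22.8 CPM and control replicate 4 lowest at 6.46 CPM. Pfkfb1, Pfkfb2 and Pfkfb4 had 0.02, -0.01 and 0.13.

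**Figure D3:**
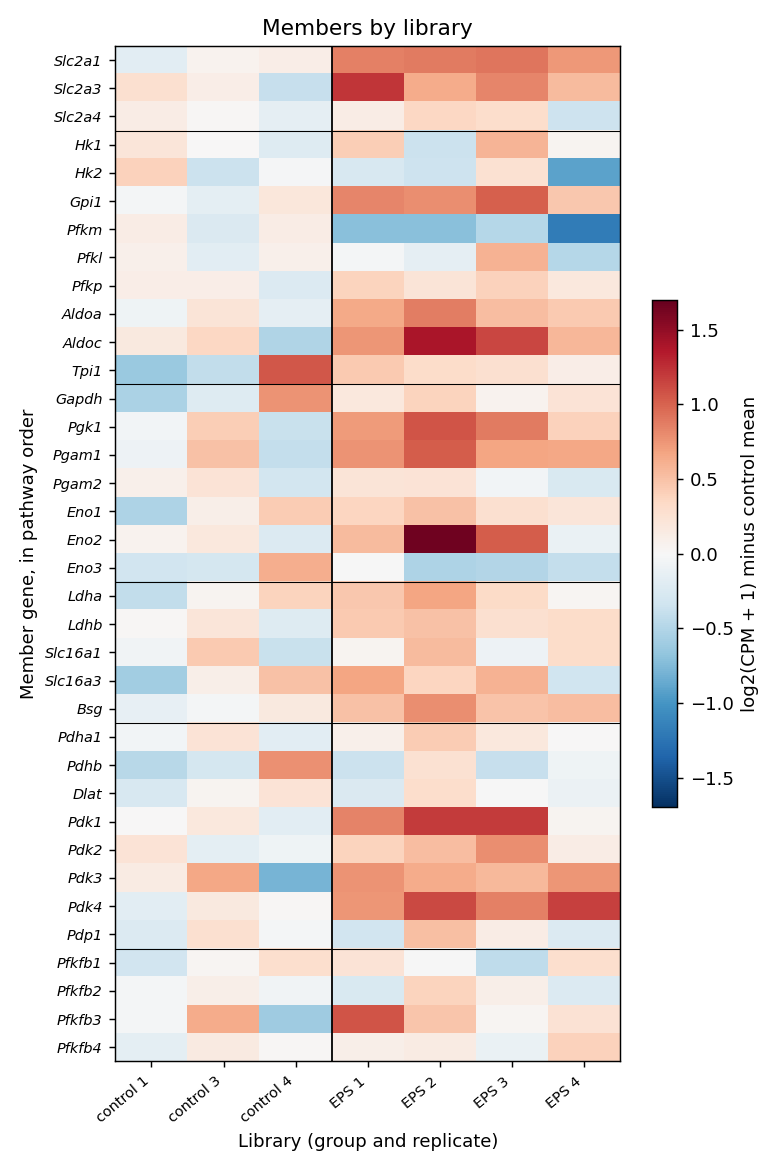
Level of each member in each library as log2(CPM + 1) minus the control mean, red above and blue below, with libraries in columns and genes in pathway order. The row of Slc2a1 is red in all 4 EPS libraries and the row of Pfkm is blue in all 4. Control replicate 4 stands out as high in Tpi1, Gapdh, Eno3 and Pdhb, and as low in Pdk3 and Pfkfb3.

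Isozymes of the same step were compared within each library, because such a ratio hardly depends on how the library was scaled. They are log2 ratios of CPM + 1. Of 10 ratios, 4 had EPS libraries that all lay below the control libraries. Each of these 4 has the form typical of muscle as the numerator, as at least 7 of the 10 were built. Pfkm is the numerator in 2 of them, so they are not 4 separate cases. The log2 ratio of Pfkm to Pfkl was 1.83, 1.72 and 1.82 in the control and 1.11, 1.23, 0.71 and 1.09 in the EPS libraries. The control libraries agree closely, and the difference was -0.76. The log2 ratio of Pfkm to Pfkp went from 2.63 ± 0.36 (SD, n = 3) to 1.57 ± 0.22 (SD, n = 4), a difference of -1.07. For Pgam2 to Pgam1 it was -0.54, -0.98 and -0.63 in the control and -1.26, -1.52, -1.43 and -1.63 in the EPS libraries, a difference of -0.74. For Slc2a4 to Slc2a1 the difference was also -0.74, but Slc2a4 was near 1 CPM in every library, and with a pseudocount of 0.1 in place of 1 the groups of this ratio overlapped. Those of Aldoa to Aldoc, where Aldoc is scarce, then did not.

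Each of these 4 had p = 0.0286 in the two-sided exact permutation test, the smallest possible, and p = 0.0714 after Benjamini-Hochberg adjustment over the 10 ratios, so none passed the adjustment. Without control replicate 4 the 4 differences were -0.74, -0.89, -0.70 and -0.88. Eno3 to Eno1 had a difference of -0.69 (exact permutation test, p = 0.0857), with control replicate 3 inside the EPS range, and Hk2 to Hk1 one of -0.49 (exact permutation test, p = 0.143). Pdk4 to Pdk2 differed by 0.52 (exact permutation test, p = 0.143). Aldoa to Aldoc, Ldha to Ldhb and Slc16a3 to Slc16a1 differed by -0.34, -0.0084 and 0.12, with p between 0.286 and 1 in the same exact permutation test.

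**Figure D4:**
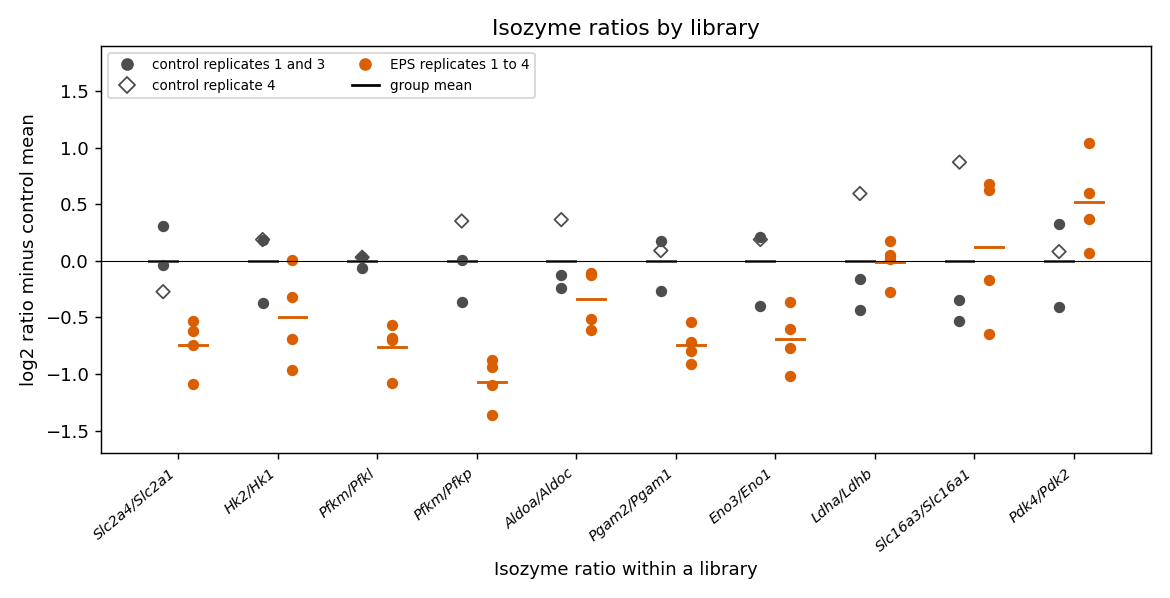
Log2 ratio of an isozyme to another of the same step within each library, minus the control mean, for 10 pairs, with bars for group means and open diamonds for control replicate 4. The EPS points lie below all control points in Slc2a4/Slc2a1, Pfkm/Pfkl, Pfkm/Pfkp and Pgam2/Pgam1, and overlap them in the other 6 pairs.

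Compared per kilobase of annotated exon, which allows levels of different genes to be set side by side, the muscle form remained the more abundant phosphofructokinase after EPS. Pfkm was at 118 ± 16.5 CPM per kilobase in the control (SD, n = 3) and 69.4 ± 13.4 in the EPS group (SD, n = 4), Pfkl at 16.9 ± 1.74 and 17.3 ± 5.79, and Pfkp at 4.68 ± 0.634 and 5.72 ± 0.434. The order of the mutases turned. Pgam2 was at 61.5 ± 11.6 and Pgam1 at 44.1 ± 14.5 CPM per kilobase in the control, against 63.0 ± 10.1 and 74.0 ± 9.32 in the EPS group, with spreads that overlap in both. These lengths count every annotated exon of a gene, so genes with long rare transcripts come out low. Reads of Gapdh, Aldoa, Eno1, Ldha, Pgk1, Pgam1 and Tpi1 may also be split with near-identical copies elsewhere in the genome, since the counting of such reads is not given in the sources used here.

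Of 42 related genes that were listed beside the members, 39 were in the tables and 37 were tested. At P under 0.05 in limma, 6 of the 37 were higher and 2 were lower, where 8.4% and 3.21% of all genes were. The higher ones were Pgm2, a phosphoglucomutase that links glycogen to glycolysis, Tbc1d1, a brake on transporter movement to the surface, Bpgm, Pcx, which carboxylates pyruvate, Slc2a9 and Txnip, which restrains glucose uptake. Pgm2 averaged 90.2 ± 10.98 in the control (SD, n = 3) and 161 ± 26.2 CPM with EPS (SD, n = 4), a log2FC of 0.83 ± 0.17 (SE, limma adjusted p = 0.107). Tbc1d1 averaged 127 ± 19.99 and 196 ± 20.2 CPM, a log2FC of 0.63 ± 0.16 (SE, limma adjusted p = 0.17). The lower ones were Slc16a4, a carrier of the lactate transporter family, at -0.89, and Gpd1, glycerol phosphate dehydrogenase, at -0.56. Without control replicate 4, 5 were higher and 1 was lower, where 7.37% and 3.87% of all genes were. Bpgm, Txnip and Gpd1 then missed P under 0.05, and G6pc3, which had missed it, was higher.

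Genes known to respond to low oxygen, several of which share regulation with members such as Pdk1, were listed apart. Of 10, 5 were higher at P under 0.05 (Ankrd37, Egln3, Egln1, Bnip3 and Ndrg1) and none was lower, where 8.4% and 3.21% of all tested genes were. Without control replicate 4, 6 were higher and none was lower, where 7.37% and 3.87% were. Egln3 averaged 117 ± 16.01 in the control (SD, n = 3) and 259 ± 62.9 CPM with EPS (SD, n = 4), a log2FC of 1.12 ± 0.22 (SE, limma adjusted p = 0.0965), and Vegfa had -0.48 at an unadjusted P of 0.148. Of 6 myoblast markers, Myod1 and Vcam1 were lower at P under 0.05 and none was higher, 5 had a log2FC below 0, and the list median was -0.38. Of the 4 tested fibroblast markers, Pdgfra was higher and Lum was lower at P under 0.05 in limma. Without control replicate 4, Lum missed it (unadjusted P of 0.0567) and Dcn was lower, with a log2FC of -1.11 at 0.0495. The part of these lists in the members' values was not tested.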

How the data were processed

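The 7 directional libraries of poly(A) RNA were read from both ends (100 bp). The submitters' processing notes name STAR 2.5.4b and GRCm38. The values that the authors deposited are CPM, the reads of each gene divided by the library's total over 26607 genes. The values are neither log-transformed nor quantile-normalized. The read counter, annotation and strand setting are not given in the sources used here, so genes that overlap others and genes with near-identical copies are uncertain. Dividing by the worth of 1 read gave whole numbers for 100% of values (tolerance 0.1 read), which recovered the reads. No replicates of a group agree within sampling noise.

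Groups follow the stimulation label and replicate numbers the sample titles. The 19144 genes with a read in any library were tested as log2(CPM + 1) with limma 3.58.1 in R 4.3.3, empirical Bayes with a mean-variance trend, EPS against control, no covariate, and Benjamini-Hochberg adjustment over all of them. A pseudocount of 1 understates folds of low genes. Capital P is unadjusted and two-sided throughout. Exact permutation tests run over 35 splits, on the difference in mean log2 values. The members and lists were chosen with earlier results of these data known. Members with non-overlapping groups or P under 0.05, isozyme pairs, Slc2a4, Hk2 and Pdk4 are given in full. Coordinates and exon lengths are GENCODE M21 on GRCm38, matched by symbol for 36 of 36 members. Aldoa has 2 entries there, and the first was used. Promoter sequences are from RefSeq. Also tried were the pseudocounts 0.5 and 0.1, a floor of 1 CPM on the mean, median-of-ratios scaling, quantile normalization, edgeR 4.0.16 (quasi-likelihood, TMM) and DESeq2 1.42.0 on recovered reads, a P threshold of 0.001, a replicate block and leaving out each library. Counts and medians of marker lists and counts of non-overlapping members without control replicate 4 were added after the data were seen. The model code was tested on simulated data.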

Additional observations from a re-analysis of the deposited data

Results flagged for a closer look

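Bsg in EPS replicate 2, at 881 CPM, lay far from the other EPS libraries, which were at 715 to 729.8 CPM. On the log2(CPM + 1) scale its gap to the nearest of them was 0.903 of the group's whole range, above Dixon's 95% critical value for 4 libraries. It was the only flag among the EPS groups of the 36 members, and chance flags about 1 in 20 such groups. The check covered groups of 4 libraries and says nothing about outliers in the control group. Without EPS replicate 2 the log2 fold change of Bsg was 0.50.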

How the results depend on the processing

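The number of all genes past P under 0.01 and 2-fold, 269 in limma, became 601 with a pseudocount of 0.1, 629 in edgeR, 585 in DESeq2, 161 with the replicate block and 106 at a P threshold of 0.001, and 209 to 325 with a library left out. In limma the members past both thresholds numbered 0. With a pseudocount of 0.5 or 0.1 there was 1 (Slc2a3), where 1.33% and 2.32% of all genes were higher past both. In edgeR and in DESeq2 there was 1 (Aldoc), where 1.72% and 1.66% were, and with a library left out 0 to 4. The 4 came without control replicate 3 (Aldoc, Pgam1, Pdk3 and Pdk4), where 1.23% of all genes were higher past both, 3 without EPS replicate 4 (Aldoc, Eno2 and Pdk1), where 0.805% were, and 1 without EPS replicate 1 or 3 (Pdk4), where 1.02% were. The members higher at P under 0.05, 10 in limma, numbered 8 to 11 with a library left out, where 6.46% to 10.2% of all genes were. They numbered 12 with a pseudocount of 0.1, where 8.79% were, and 7 without control replicate 4 after median-of-ratios scaling, where 5.33% were. In each of these fits 1 member was lower. Of all genes, 2.26% to 3.97% were lower with a library left out and 3.09% with a pseudocount of 0.1. Without control replicate 4 after median-of-ratios scaling, 5.9% were. The median of the members, 0.31, was 0.18 in DESeq2 and 0.17 to 0.37 with a library left out, and 0.17 without control replicate 4 after median-of-ratios scaling, an alternative chosen with earlier results known. The related genes at P under 0.05, 8 in limma, numbered 5 with the replicate block. The 4 isozyme ratios without overlap became 4 to 6 with a library left out, a count that cannot fall when a library is removed. With a pseudocount of 0.1 the log2 ratio of Slc2a4 to Slc2a1 differed by -0.70 and its groups overlapped. Slc2a3 and Slc2a4, at 44 reads or fewer per library, are limited by depth. The causes were not tested.

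Same-numbered control and EPS libraries did not deviate together (Pearson r of 0.25, -0.45 and 0.068 for replicates 1, 3 and 4 across 12256 genes). The numbers are therefore not taken as pairs. Among differently numbered libraries, r ran from -0.46 (control replicate 1, EPS replicate 2) to 0.59 (control replicate 1, EPS replicate 3). What such libraries share was not tested. The replicate block, in which EPS replicate 2 has no partner, left 8 members higher and 1 lower at P under 0.05, where 5.52% and 2.98% of all genes were.

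No member whose sign turned had P under 0.05 in limma with all libraries. After median-of-ratios scaling they were Pgam2 (-0.074), Pdp1 (-0.094) and Pfkfb1 (-0.043), and after quantile normalization Pgam2 (-0.059), Pdp1 (-0.077), Pfkfb1 (-0.044) and Pfkfb4 (-0.024). In edgeR they were Tpi1 (-0.024), Gapdh (-0.0020), Pgam2 (-0.065), Pdp1 (-0.066) and Pfkfb1 (-0.067), and in DESeq2 Tpi1 (-0.034), Gapdh (-0.013), Pgam2 (-0.078), Pdp1 (-0.076) and Pfkfb1 (-0.082). With the replicate block they were Pfkl (0.026), Pgam2 (-0.027) and Pdp1 (-0.15). Without control replicate 4 after median-of-ratios scaling they were Slc2a4 (-0.027), Hk1 (-0.047), Pgam2 (-0.23), Slc16a1 (-0.099), Pdha1 (-0.031), Pdhb (0.13) and Pdp1 (-0.11). Leaving out single libraries, the range was -0.22 to 0.14 for Pfkl, -0.030 to 0.81 for Tpi1, -0.055 to 0.59 for Gapdh, -0.12 to 0.15 for Pgam2, -0.38 to 0.24 for Pdhb, -0.16 to 0.10 for Dlat, -0.15 to 0.15 for Pdp1, -0.14 to 0.17 for Pfkfb1 and -0.14 to 0.077 for Pfkfb2.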
